A study of Mus musculus with 44 samples.

Results

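RNA recovered with an antibody against AUF1 from differentiating mouse C2C12 cells was followed over days 0, 2, 4 and 6. These pulldowns make up 14 of the 44 arrays of the series and were chosen by their labels, 4 from day 0, 3 from day 2, 3 from day 4 and 4 from day 6. C2C12 is an established line of mouse myoblasts, which leave the cell cycle and form multinucleate myotubes once serum is reduced. Day 0 was growing cells in 10% serum, and days 2, 4 and 6 were counted from the change to medium with 2% horse serum. Lysates were incubated with beads carrying anti-AUF1 or control IgG, and the recovered RNA was amplified, biotin labelled and hybridised to Illumina bead arrays, as was input RNA. Used for comparison were 15 IgG pulldown arrays of the same days (4, 3, 4 and 4 arrays for days 0, 2, 4 and 6) and 15 input arrays (5 each on days 0, 3 and 6). The titles of the input arrays speak of DNA while the protocol describes RNA, and they are taken here as input RNA. The 5 input arrays of a day come from 4 experiment numbers, with 2 arrays of experiment 1 on day 0, of experiment 2 on day 3 and of experiment 3 on day 6. The labels name no further treatment of the cells. They do not say which arrays came from separate cultures, so p-values measure the spread between arrays, which may be in part technical.

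AUF1, the product of Hnrnpd, is an RNA-binding protein made in several splice forms. It binds AU-rich elements, which lie mostly in the 3′ untranslated regions of short-lived mRNAs, and its binding can speed decay, stabilise the mRNA or alter its translation. In myoblasts, entry into differentiation switches off cell cycle genes and switches on muscle regulators and then contractile proteins, so the pool of mRNA that AUF1 can meet changes with time. An IgG pulldown measures RNA that beads and a control antibody recover from cell lysate, and input measures the pool itself. The table identifies each probe by its Illumina number alone and genes are not named here, so the results are on probes and sets of probes.

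Most of the probes called against day 0 in the AUF1 pulldown were called on day 6. Signals were background corrected, quantile normalized among the 14 AUF1 arrays and taken to log2, and a probe was called where limma's adjusted p was under 0.05. Of 11601 probes tested, 120 were called on day 2 against day 0 (1.03%), 187 on day 4 against day 0 (1.61%) and 1050 on day 6 against day 0 (9.05%). Between neighbouring days, 2 probes were called on day 4 against day 2 (0.0172%) and 353 on day 6 against day 4 (3.04%). A test over all days found 836 probes (7.21%). The counts do not give the size of the changes: the median absolute change from day 0 over all tested probes was 0.29, 0.26 and 0.27 (log2) on days 2, 4 and 6. Days 2 and 4 had 3 arrays each, 3 of these 6 were dim, and array weights gave 1810, 713 and 2817 calls on these days. Because quantile normalization gives all arrays the same distribution, "higher" and "lower" say how a probe moved against the rest. Changes in how much RNA each cell held and in how many cells of a kind were present cannot be told apart in these bulk lysates.

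**Figure D1:**
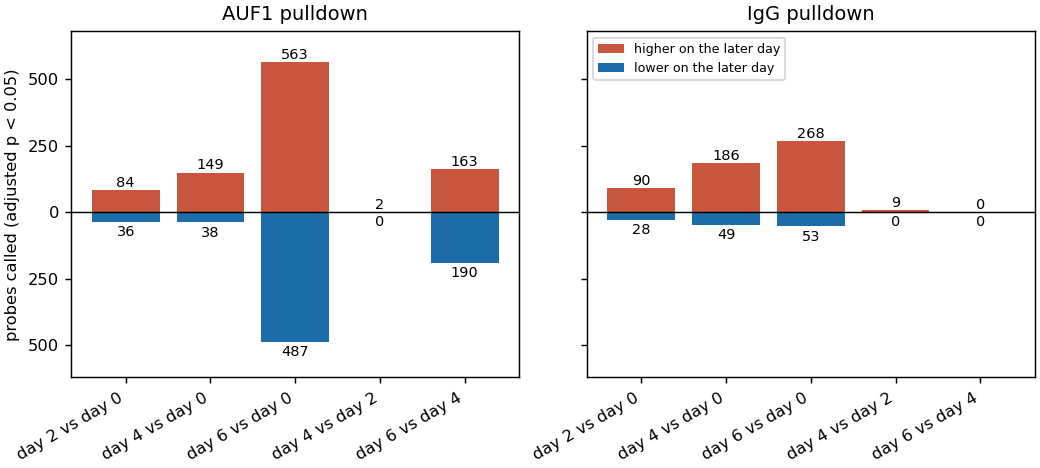
Number of probes called at limma adjusted p under 0.05 in each comparison of days, higher on the later day above the axis and lower on the later day below it, for the AUF1 pulldown (14 arrays, 11601 probes tested) and the IgG pulldown (15 arrays, tested in a joint fit of 13812 probes). In AUF1 the counts stand at 84 and 36 on day 2, 149 and 38 on day 4 and 563 and 487 on day 6 against day 0.

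The share of the 25697 probes that was detected (detection p under 0.05) differed widely between AUF1 arrays of the same day. On day 0 it was 38.9%, 28.6%, 38.5% and 40.9% in experiments 1 to 4. On day 2 it was 29.2%, 24.4% and 35.5% in experiments 1, 2 and 4. On day 4 it was 32.7%, 24.5% and 39.9% in experiments 1, 3 and 4, and on day 6 it was 45.5%, 36.3%, 33.3% and 44.4% in experiments 1 to 4. The days overlapped, and 4 AUF1 arrays stood under 30%: experiment 2 on day 0, experiments 1 and 2 on day 2 and experiment 3 on day 4. The IgG arrays held 25.6% to 46.8% and the input arrays 44.7% to 48.7%.

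For days 0, 2, 4 and 6 the mean detected share was 36.7% ± 5.51, 29.7% ± 5.56, 32.3% ± 7.68 and 39.9% ± 5.99 (SD, n = 4, 3, 3 and 4). The mean signal followed the same order of days, at 195 ± 53.4, 107 ± 24.4, 127 ± 39.5 and 213 ± 63.5 intensity units. The difference in detected share from day 0 was -7.05 percentage points on day 2 (exact permutation, two-sided, p = 0.171), -4.39 on day 4 (p = 0.429) and 3.12 on day 6 (p = 0.457). From day 4 to day 6 it was 7.51 points (exact permutation p = 0.2), and from day 2 to day 4 it was 2.66 points (p = 0.7, where 0.1 is the smallest p possible). In the other 4 comparisons the smallest possible p is 0.0286, and adjusted over the 5 comparisons the p-values ran from 0.5 to 0.7. Within experiments, the share was lower than on day 0 in 3 of 3 pairs on day 2 (mean -6.47 points) and in 3 of 3 on day 4 (mean -7.09), and higher on day 6 than on day 4 in 3 of 3 (mean 8.70), each with an exact permutation p of 0.25, the smallest that 3 pairs allow. By the probe signals, the experiment numbers were taken as borne out as pairs for day 2 with day 0 and day 6 with day 4. They were not for day 4 with day 0. These verdicts rest on a chosen limit, given with the processing. The days and the detected share thus moved together in part, and fits with the share as a covariate and without the dim arrays are given with the alternatives.

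**Figure D2:**
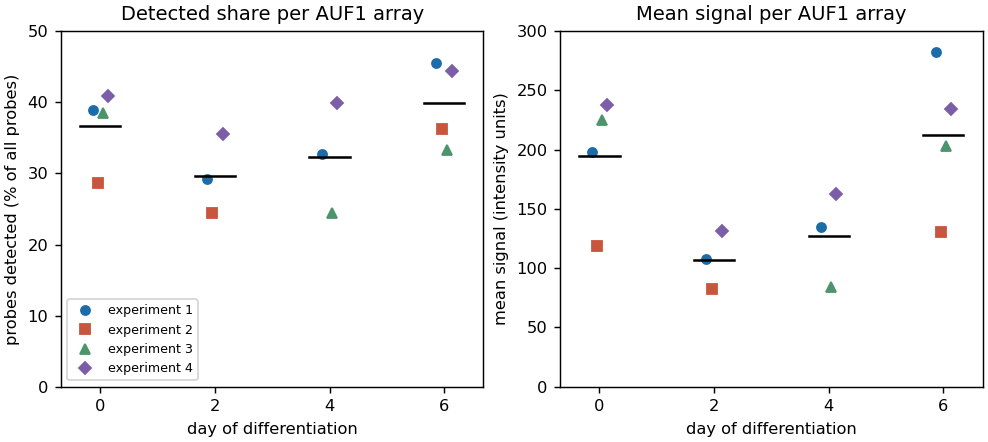
Left, share of all 25697 probes detected on each AUF1 array by day of differentiation, and right, the mean signal of the same arrays in intensity units. Points are arrays, shaped by experiment number, and bars are the means of a day: the day 2 arrays lie between 24.4% and 35.5% and the day 6 arrays between 33.3% and 45.5%.

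Among the tested probes, the leading axis of variation set the dim arrays apart and the next set the days apart. The first principal component held 34.7% of the variance, and the 4 arrays under 30% detected lay at 16.6 to 59.4 on it. The other arrays lay below 0, except experiment 1 of day 4 at 12.5 and experiment 3 of day 6 at 30.3. The second component held 18.6% of the variance. Day 0 arrays lay at -33.1 to -18.6 on it, day 2 arrays at -12.2 to -1.30, day 4 arrays at -8.72 to 4.19 and day 6 arrays at 31.5 to 41.4. Days 2 and 4 overlapped on this component, while days 0 and 6 each stood apart from the other days.

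The comparison of day 2 with day 0 asked which RNAs were recovered more or less once differentiation had begun. Of the 120 probes called, 84 were higher on day 2 (0.724% of the tested probes) and 36 lower (0.31%), and 81 of the higher and 33 of the lower changed by at least 2-fold. The median change was 1.83 (log2) for the higher probes and -1.45 for the lower ones. In each of the 120 the arrays of the 2 days did not overlap, and in each the sign was the same in all 3 experiments that hold both days. The probes were called on these same arrays, so both counts follow largely from the call and are no further support. Of the 36 lower probes, 14 were detected on no day 2 array, while of the 84 higher probes 6 were detected on no day 0 array. The balance of directions depended on the scaling, with 51 higher and 67 lower under scaling to 1 mean and SD and 1 higher and 3 lower under median scaling, which shifts the median of the tested probes by -0.74.

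The probe with the highest change on day 2 was ILMN_2747959. Its normalized signal (log2) was 7.47, 8.67, 8.11 and 6.55 on day 0, 12.18, 12.68 and 11.83 on day 2, 12.29, 12.47 and 11.56 on day 4, and 12.15, 12.15, 11.90 and 11.96 on day 6. All later arrays stood above all day 0 arrays, and the days after day 0 overlapped. The mean was 12.23 ± 0.42 on day 2 and 7.70 ± 0.91 on day 0 (SD, n = 3 and 4), a change of 4.53 ± 0.40 (log2, SE; limma adjusted p = 4.7e-05). ILMN_2610744 came next, at 12.66, 12.92 and 13.14 on day 2 against 8.24, 9.72, 8.97 and 8.40 on day 0, a change of 4.07 ± 0.35 (limma adjusted p = 4.7e-05). The IgG pulldown changed by 4.26 and 3.98 for these probes on the same days, and input by 4.99 and 5.90 on day 3.

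Of the lower probes on day 2, ILMN_2979237 fell below detection. It stood at 6.74, 7.01, 7.06 and 6.59 on day 0, 4.39, 4.31 and 4.40 on day 2, 4.47, 6.95 and 6.83 on day 4, and 5.06, 5.01, 5.76 and 5.16 on day 6. None of the day 2 arrays detected it, and it was detected on all day 0 and day 6 arrays. Its day 2 level is therefore a bound, at least 3.11-fold lower than on day 0 (limma adjusted p = 0.0164). On day 4 it differed between arrays, with experiment 1 undetected and the other two within the day 0 range.

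ILMN_2619330 was lower but still detected, at 5.72, 5.91 and 6.44 on day 2 against 8.07, 7.59, 8.11 and 7.88 on day 0, a change of -1.89 ± 0.31 (limma adjusted p = 0.00726). The IgG change was -0.77 for this probe (adjusted p = 0.689) and -1.80 for ILMN_2979237 (adjusted p = 0.149). Under a replicate block of experiment numbers, which the arrays of these days bore out as a pairing, day 2 had 315 calls, 174 higher and 141 lower, among them all 120. Without the 4 dim arrays day 2 is left with 1 array, that of experiment 4, assumed to vary like the other days. Then 15 were called, all higher, and ILMN_2979237 and ILMN_2619330, with changes of -2.39 and -1.58, were not among them.

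On day 4 more probes were called, still mostly upward. Against day 0, 149 probes were higher (1.28%) and 38 lower (0.328%), and 139 and 27 of these moved 2-fold or more. The median change was 1.91 (log2) for the higher probes and -1.22 for the lower ones. The arrays of days 4 and 0 did not overlap in any of the 187, and each had the same sign in all 3 experiments that hold both days. As on day 2, this follows largely from the call, and the experiment numbers were not borne out as pairs for these days. Of the 149 higher probes, 23 were detected on no day 0 array.

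The largest gain in the pulldown was that of ILMN_1260428, which was undetected on all 4 day 0 arrays. It stood at 4.32, 4.28, 4.31 and 4.35 on day 0, 7.27, 7.79 and 8.97 on day 2, 10.74, 13.24 and 13.38 on day 4, and 10.58, 10.46, 11.60 and 11.51 on day 6. Each of days 2, 4 and 6 stood clear of day 0, and days 4 and 6 overlapped. Its level was at least 199-fold higher on day 4 (limma adjusted p = 1.85e-06) and at least 74.8-fold higher on day 6 (adjusted p = 4.82e-06) than on day 0. On day 2 it was at least 9.16-fold higher (adjusted p = 0.00407). ILMN_2933357 averaged 10.20 ± 0.67 on day 4 and 4.52 ± 0.19 on day 0 (SD, n = 3 and 4), and 1 of the 4 day 0 arrays detected it. Its change was 5.68 ± 0.50 (limma adjusted p = 2.14e-05). In the IgG pulldown ILMN_1260428 gained 7.34 on day 4, with 1 of 4 day 0 arrays detecting it, and ILMN_2933357, detected on none of them, was at least 38.7-fold higher. Input gained 6.02 and 3.67 on day 3, with 2 and 1 of the 5 day 0 input arrays detecting these probes.

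The probes with the lowest changes on day 4 fell less far and with wider spread. ILMN_2875585 stood at 6.33, 5.26 and 6.57 on day 4 against 9.50, 7.13, 8.20 and 9.85 on day 0, and at 5.18, 4.60, 4.54 and 5.28 on day 6. Its change was -2.62 ± 0.59 on day 4 (limma adjusted p = 0.0408) and -3.77 on day 6 (adjusted p = 0.000805), and experiment 3 of day 4 did not detect it. In input it fell by 6.42 on the log2 scale by day 3. ILMN_2790357 was lower for a time only, at 7.26, 7.66, 7.44 and 6.75 on day 0, 6.18, 4.59 and 5.81 on day 2, 5.91, 4.27 and 5.61 on day 4, and 6.88, 7.48, 7.22 and 6.40 on day 6. The day 6 and day 0 arrays overlapped. Its change was -2.01 ± 0.43 on day 4 against day 0 (limma adjusted p = 0.0322), 1.73 on day 6 against day 4 (adjusted p = 0.0456) and -0.28 on day 6 against day 0 (adjusted p = 0.808). The day 4 calls of ILMN_2875585 and ILMN_2790357 were lost under 11 and 10 of 18 alternatives, with no change of sign. Their IgG changes on day 4 against day 0 were -2.56 and -1.68 (limma adjusted p = 0.0206 and 0.143).

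Day 6 brought nearly as many losses as gains. Against day 0, 563 probes were higher (4.85%) and 487 lower (4.2%), and 368 and 349 of these moved 2-fold or more. The median change was 1.13 (log2) for the higher probes and -1.17 for the lower ones. Arrays of the 2 days did not overlap in 528 of the 563 and 443 of the 487, and the sign was the same in all 4 experiments in 557 and 483. Here too the counts follow largely from the call, and the experiment numbers were not borne out as pairs for these days. Of the 487 lower probes, 439 were detected on every array of both days and 3 on no day 6 array. Scaling to 1 mean and SD gave 431 higher and 225 lower, and median scaling 98 and 22.

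Among the gains on day 6, ILMN_2954987 was detected on every AUF1 array. It stood at 6.06, 7.14, 6.90 and 6.16 on day 0, 9.28, 9.28 and 10.16 on day 2, 11.42, 12.24 and 12.21 on day 4, and 10.88, 10.54, 11.55 and 11.05 on day 6. Days 0 and 2 stood apart from each other and from the later days, while days 4 and 6 overlapped. Its change on day 6 against day 0 was 4.44 ± 0.32 (limma adjusted p = 4.24e-06), with changes of 5.39 in IgG and 5.99 in input over the same days.

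The deepest losses on day 6 came late. ILMN_2730329 was among the bright probes until day 4, at 12.01, 11.62, 12.56 and 12.12 on day 0, 11.75, 11.63 and 11.81 on day 2 and 11.17, 10.96 and 11.24 on day 4. On day 6 it stood at 9.05, 8.83, 6.55 and 7.28, below every array of the other days. Its change was -4.15 ± 0.44 against day 0 (limma adjusted p = 6.08e-05) and -3.19 ± 0.47 against day 4 (adjusted p = 0.00455). In IgG it changed by -1.87 on day 6 against day 4 (limma adjusted p = 0.57). In input the same probe was lower by day 3, with a change of -3.62, and moved by 0.09 from day 3 to day 6. The input arrays were made on days 0, 3 and 6, so the days of the fall in input and pulldown can only be bracketed.

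ILMN_2785454 followed a like course. It stood at 9.91, 10.51, 10.11 and 9.49 on day 0, 9.72, 10.67 and 9.02 on day 2, 8.83, 8.92 and 8.06 on day 4, and 6.49, 6.68, 5.78 and 4.92 on day 6. Days 0 and 2 overlapped, and the day 4 and day 6 arrays each stood below both. Its change was -4.04 ± 0.41 on day 6 against day 0 (limma adjusted p = 4.48e-05) and -2.64 on day 6 against day 4 (adjusted p = 0.0093), and input changed by -3.20 by day 3 and by 0.07 from day 3 to day 6. The IgG changes on day 6 against day 0 were -2.91 for ILMN_2730329 and -2.20 for ILMN_2785454 (limma adjusted p = 0.0109 and 0.0336). The 4 probes named for day 6 stayed called against day 0 under every alternative in which they were tested. The call of ILMN_2730329 on day 6 against day 4 was lost under median scaling and in the fit of the 2 days alone (limma adjusted p = 0.108 and 0.0522). That of ILMN_2785454 was not followed under the alternatives.

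**Figure D3:**
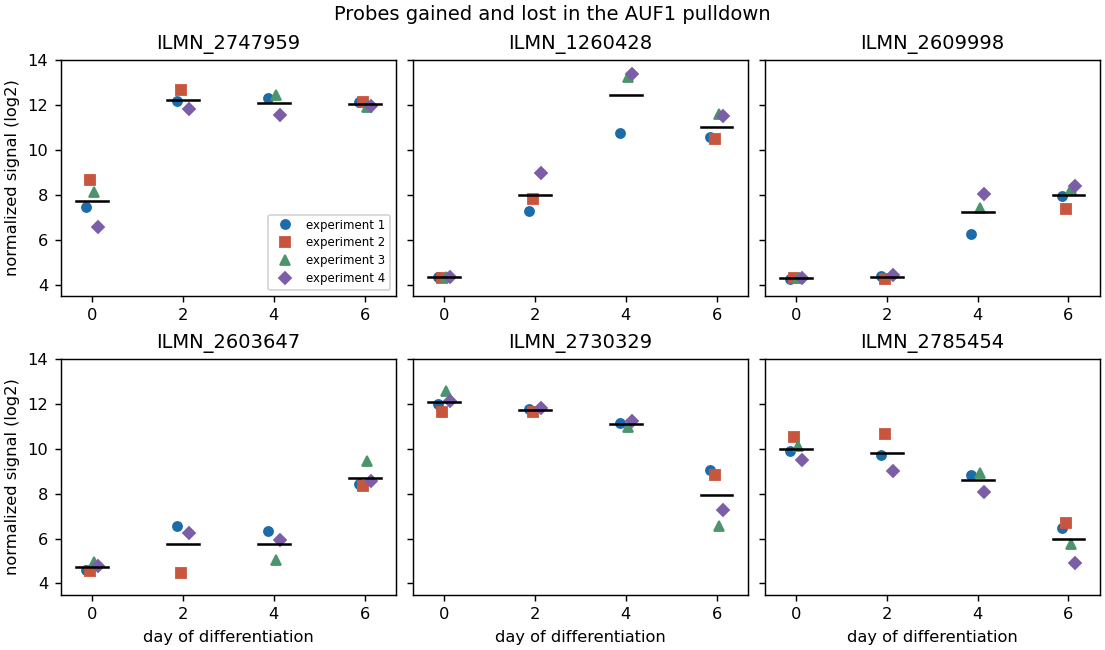
Normalized signal (log2) of 6 probes on each AUF1 array by day of differentiation, with points shaped by experiment number and bars at the mean of each day. ILMN_2747959 is high from day 2, ILMN_1260428 and ILMN_2609998 peak or appear from day 4, ILMN_2603647 is high on day 6, and ILMN_2730329 and ILMN_2785454 are lowest on day 6.

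The order of gain and loss was taken from the day on which a probe was called against day 0. The 3 comparisons share the 4 day 0 arrays, so their calls are not independent. In all, 1117 probes were called on at least 1 day, 599 of them higher and 518 lower, and 0 were called in opposite directions on different days. The 599 higher probes comprised 84 first called on day 2, 81 first called on day 4 and 434 on day 6 alone. The 518 lower probes comprised 36 first called on day 2, 20 first called on day 4 and 462 on day 6 alone. A call did not always last: 70 of the 84 and 59 of the 81 higher probes were also called on day 6. Of the lower probes it was 20 of the 36 and 5 of the 20. Day 6 alone thus held 80.2% of the probes, and 62 higher and 12 lower probes were called on all 3 days. The share was 94.2% under median scaling, 76.8% under a replicate block of experiment numbers and 90.1% without the 4 dim arrays, alternatives chosen after the data were seen.

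The probes called on day 6 alone were by construction not called on days 2 and 4, so smaller values on those days follow in part from the choice. The 84 higher probes first called on day 2 had median changes from day 0 of 1.83, 2.03 and 1.65 (log2) on days 2, 4 and 6. The 81 first called on day 4 stood at 0.91, 1.66 and 1.30, and the 434 called on day 6 alone at 0.29, 0.32 and 1.06. Among the lower probes, the 36 first called on day 2 had medians of -1.45, -1.06 and -0.85 on days 2, 4 and 6. The 20 first called on day 4 had medians of -0.76, -1.06 and -0.41. The 462 called on day 6 alone had medians of -0.31, -0.31 and -1.17. The value on the day of the call is fixed in part by the call itself.

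Of the 836 probes found by the test over all days, 343 had their highest mean on day 6 (41%, against 34.6% of all tested probes) and 238 on day 0 (28.5%, against 27.7%), while 163 peaked on day 4 and 92 on day 2. Their lowest mean fell on day 0 in 321 (38.4%, against 20.3% of all tested probes) and on day 6 in 309 (37.0%, against 27.4%). It fell on day 2 in 110 (13.2%, against 30.5%) and on day 4 in 96 (11.5%, against 21.7%).

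The step from day 2 to day 4 was small. Only ILMN_1260428 and ILMN_2609998 were called, both higher, of 406 probes at an unadjusted p under 0.05. ILMN_2609998 was undetected on all day 0 and day 2 arrays, stood at 6.26, 7.39 and 8.03 on day 4 and at 7.96, 7.38, 8.24 and 8.41 on day 6. Days 4 and 6 overlapped and both stood clear of the earlier days. Its level on day 4 was at least 4.04-fold higher than on day 2 (limma adjusted p = 0.0149), and input gained 5.26 (log2) by day 3, with 2 of 5 day 0 input arrays detecting it, and a further 1.51 by day 6. The day 4 change of ILMN_1260428 against day 2 was 4.44 ± 0.60 (limma adjusted p = 0.0156). In IgG the same step was 4.29 for this probe (limma adjusted p = 0.00774). There ILMN_2609998 was at least 5.26-fold higher (limma adjusted p = 0.00142). A fit of the AUF1 arrays of days 2 and 4 alone called 0 probes. Without the dim arrays, with 1 array left on day 2 and 2 on day 4, 0 were called and the changes were 3.09 and 2.74.

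Between day 4 and day 6 the changes ran in both directions, with 163 probes higher on day 6 (1.41%) and 190 lower (1.64%). The median change was 1.17 (log2) for the higher and -1.34 for the lower probes, and each of the 353 had the same sign in all 3 experiments that hold both days. That sameness of sign follows largely from the call on these same arrays. Scaling to 1 mean and SD gave 297 higher and 150 lower, and median scaling 72 and 0. From day 0 to day 2, in arrays that the step does not use, their median changes were 0.0073 and -0.036, against -0.072 over all tested probes, and 81 of the 163 and 88 of the 190 had the opposite sign. Over all tested probes the sign was opposite in 58.8%. Of the 190, 9 were called higher and 1 lower on day 2 against day 0, and of the 163, 3 were called higher and 0 lower. In input their median changes from day 3 to day 6 were -0.050 and 0.105. Under a replicate block of experiment numbers, again borne out as a pairing, the step had 864 calls, 418 higher and 446 lower, among them all 353. Without the day 4 array of experiment 3, one of the dim arrays, 35 were called.

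ILMN_2603647 had the highest change of this step. It stood at 4.59, 4.57, 4.94 and 4.76 on day 0, 6.57, 4.48 and 6.23 on day 2, 6.36, 5.03 and 5.92 on day 4, and 8.42, 8.33, 9.44 and 8.59 on day 6. Days 2 and 4 overlapped, and every day 6 array stood above all the others. Its change was 2.93 ± 0.45 on day 6 against day 4 (limma adjusted p = 0.00558), and input gained 1.87 by day 3 and changed by -0.05 from day 3 to day 6. ILMN_2424721 stood at 9.05, 8.36, 7.35 and 8.15 on day 6 against 6.63, 4.51 and 6.38 on day 4, a change of 2.39 ± 0.53 (limma adjusted p = 0.0262). Its day 6 and day 0 arrays overlapped, with a change of 0.78 between them (adjusted p = 0.436). In IgG the step from day 4 to day 6 was 2.05 for ILMN_2603647 and 0.49 for ILMN_2424721 (limma adjusted p = 0.519 and 0.89).

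The lowest change of the step was that of ILMN_2795040, at 9.39, 9.59, 5.75 and 7.48 on day 6 against 11.56, 10.77 and 11.55 on day 4. It had stood at 11.95, 11.96, 12.09 and 12.03 on day 0. The 2 days did not overlap, but the day 6 arrays spread widely (SD 1.81, n = 4). Its change was -3.24 ± 0.66 (limma adjusted p = 0.018), and in input it changed by -3.44 by day 3. In IgG the same step was -1.99 (limma adjusted p = 0.689). The calls of ILMN_2424721 and ILMN_2795040 were lost under 9 of 18 and 7 of 19 alternatives, with no change of sign.

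Detection gave a count of gain and loss that does not depend on normalization. Every array of the day detected 6687 probes for day 0, 5314 for day 2, 5715 for day 4 and 7445 for day 6. All 14 arrays detected 4635 probes and none detected 10889. From none of the 4 day 0 arrays to all 4 day 6 arrays, 70 probes were gained (0.272% of all probes), and 13 were lost in the opposite way (0.0506%). Of the 70 gained, 5 were detected on all day 2 arrays and 23 on all day 4 arrays, and 28 made the same change in the IgG pulldown and 13 in input. None of the 13 lost probes made the same change in IgG or input (0 and 0). How many of all probes made these changes in IgG or input was not counted. The overlaps therefore have no background share to be read against. Day 6 arrays detected more probes on average, so the larger number of gains stands beside a detected share of 39.9% on day 6 and 36.7% on day 0.

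The IgG pulldown was set beside these changes to see whether they were particular to AUF1. It changed over the same days, and probes called in AUF1 mostly moved in the same direction in IgG. In a joint fit of the 29 pulldown arrays and 13812 probes, IgG had 118 probes called on day 2 (0.854%), 235 on day 4 (1.7%) and 321 on day 6 (2.32%) against day 0. AUF1 had 237 (1.72%), 234 (1.69%) and 1032 (7.47%) in that fit. Every probe called on day 2 or day 4 in the fit of the AUF1 arrays had the same sign in IgG: 84 of 84 higher and 36 of 36 lower on day 2, and 149 of 149 and 38 of 38 on day 4. On day 6 it was 549 of 563 and 481 of 487. Of the higher probes, 61, 114 and 211 were also called higher in IgG on days 2, 4 and 6. Over all tested probes, IgG had 0.652%, 1.35% and 1.94% called higher. Of the lower ones, 9, 20 and 42 were also called lower, against 0.203%, 0.355% and 0.384% of all tested probes. The share with the same sign over all tested probes was not computed, so the sign counts cannot be set against it. The AUF1 and IgG changes correlated over all of these probes.

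The size of the IgG change was close to that of AUF1 for the early gains and smaller for the day 6 probes. The median change in AUF1 and in IgG was 1.83 and 1.82 (log2) for the probes higher on day 2, 1.91 and 1.99 for those higher on day 4, and 1.13 and 0.73 for those higher on day 6. For the probes lower on day 6 it was -1.17 in AUF1 and -0.53 in IgG. For the step from day 4 to day 6 it was 1.17 and 0.49 for the higher probes and -1.34 and -0.42 for the lower ones. The probes were chosen for their change in AUF1, which by itself makes the AUF1 values the larger. In the joint fit, IgG had 0 probes called on day 6 against day 4, with 936 at an unadjusted p under 0.05. AUF1 had 350 (2.53%). The IgG day 4 arrays included a dim one, experiment 2 at 25.6% detected. The difference between the AUF1 and IgG changes was not tested for this step. These counts therefore do not show that the step was particular to AUF1.

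The direct test of a difference between the AUF1 change and the IgG change called no probe on any day. By limma's interaction contrast, 0 of 13812 probes were called for each of days 2, 4 and 6 against day 0, and 365, 182 and 341 had an unadjusted p under 0.05. Under a replicate block of experiment numbers the counts were again 0, with 715, 359 and 839 at an unadjusted p under 0.05. With array weights 4 probes were called on day 6 and 0 on the other days. An AUF1 change different from that of IgG was therefore not shown for any single probe, apart from these 4 and 1 called on day 2 when the AUF1 array of experiment 4 was left out. With 3 or 4 arrays per group, this does not show that the changes were alike. These fits also did not pair the AUF1 and IgG arrays that share an experiment number and a day. A fit with such pairs was not run.

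Across the 13812 probes, which share arrays and normalization and are no replicates of each other, the AUF1 change and the IgG change correlated with Pearson's r of 0.60 on day 2, 0.74 on day 4 and 0.73 on day 6. For the step from day 4 to day 6 r was 0.48, and from day 2 to day 4 it was 0.22.

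In input few probes were called after day 3. Of 13750 probes tested in input, 5148 were called on day 3 against day 0 (37.4%), 5835 on day 6 against day 0 (42.4%) and 62 on day 6 against day 3 (0.451%). In the AUF1 pulldown more calls came between days 4 and 6 than between days 2 and 4, though the tests differ in days and arrays. The probes gained early in AUF1 were mostly higher in input too: of the 84 probes higher on day 2, 65 were called higher and 1 lower in input on day 6, and of the 149 higher on day 4 it was 135 and 0. Over all tested probes, input had 19.5% called higher and 23% lower on day 6. Of the 562 measured among the 563 higher, 306 were called higher and 55 lower in input on day 6, and of the 486 measured among the 487 lower, 234 were called lower and 27 higher. Of the 163 probes higher on day 6 than on day 4, 28 were called higher and 48 lower in input on day 6 against day 0, and of the 190 lower, 48 were called higher and 47 lower.

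AUF1 and input changes differed for many probes. In a joint fit of 18 arrays, those of AUF1 and input on days 0 and 6, the change in AUF1 differed from that in input for 2256 of 14005 probes (16.1%), above it for 1170 (8.35%) and below it for 1086 (7.75%). Under median scaling it was 948 and 443. In 814 of these AUF1 was higher and input lower on day 6, and in 563 AUF1 was lower and input higher. In 423 both were higher, with a smaller rise in AUF1, and in 282 both were lower, with a smaller fall in AUF1. AUF1 had the steeper rise in 74 and the steeper fall in 100. These counts take the sign of each change, whether or not it was called. Across the 14005 probes the AUF1 and input changes correlated with r = 0.40. Pulldown RNA passed through the beads and input did not, so AUF1 binding and the handling of the pulldown cannot be told apart in this comparison.

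**Figure D4:**
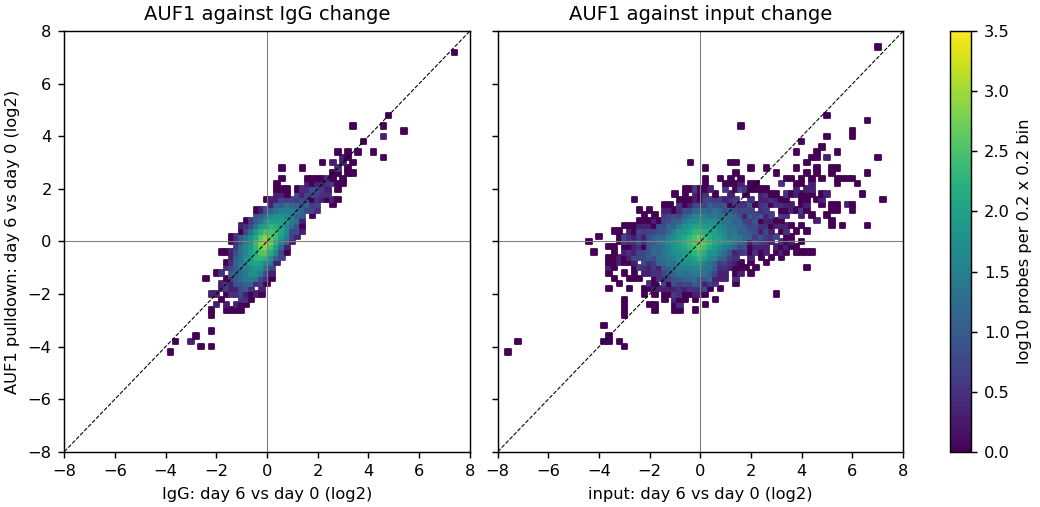
Change from day 0 to day 6 (log2) in the AUF1 pulldown on the vertical axis, against the change in IgG (left, 13812 probes) and in input (right, 14005 probes), with probes counted in bins of 0.2 log2 units and the count coloured on a log10 scale. Probes lie near the dashed line of equal change for IgG (r = 0.73) and spread widely and more flatly for input (r = 0.40).

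The probes at the upper end of this test moved in opposite directions in the 2 kinds of sample. ILMN_2980661 averaged 10.63 ± 0.52 on day 6 and 9.09 ± 0.31 on day 0 in AUF1 (SD, n = 4 each), against 8.05 ± 0.25 on day 6 and 10.55 ± 0.65 on day 0 in input (SD, n = 5 each). The AUF1 change was higher by 4.04 ± 0.41 (log2, SE; limma adjusted p = 7.33e-06). ILMN_2980663 was higher by 3.75 ± 0.44 (adjusted p = 2.48e-05), with changes of 1.25 in AUF1 and -2.49 in input.

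In the opposite direction, ILMN_2882658 averaged 12.43 ± 0.42 on day 6 and 10.87 ± 0.20 on day 0 in AUF1 (SD, n = 4 each), against 13.51 ± 0.11 on day 6 and 6.35 ± 2.03 on day 0 in input (SD, n = 5 each). The difference of changes was -5.60 ± 0.93 (limma adjusted p = 0.00046). The probe rose in both, and its day 0 level in AUF1 was above that in input, where the day 0 arrays spread widely. ILMN_2710698 changed by -2.09 in AUF1 and by 2.91 in input, a difference of -5.00 ± 1.10 (adjusted p = 0.00415), with a wide spread among the day 6 input arrays (SD 2.24, n = 5). The IgG changes were 2.52 for ILMN_2882658 and -1.17 for ILMN_2710698, again in the direction of AUF1.

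To follow the pool through the pulldown without choosing probes on AUF1 values, lists were drawn from input alone (adjusted p under 0.05 and a change of at least 2-fold) and read on the AUF1 arrays with no filter. The 977 probes higher in input by day 3 had median input changes of 1.52 on day 3 and 1.67 on day 6. In the AUF1 pulldown their median change from day 0 was 0.23 on day 2, 0.41 on day 4 and 0.36 on day 6, against 0.0083, 0.0026 and -0.0019 over all probes. By array, the list's median change was 0.21, 0.16 and 0.28 on day 2, 0.39, 0.30 and 0.57 on day 4, and 0.28, 0.23, 0.45 and 0.53 on day 6. Every later array stood above all day 0 arrays, which lay between -0.025 and 0.0066. Of the 977, 72.2% were up on day 2, 82.1% on day 4 and 81.0% on day 6.

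The 944 probes lower in input by day 3 had median input changes of -1.37 on day 3 and -1.48 on day 6. Their median AUF1 change was -0.42 on day 2, -0.47 on day 4 and -0.22 on day 6. By array it was -0.38, -0.52 and -0.26 on day 2, -0.37, -0.56 and -0.33 on day 4, and -0.11, -0.13, -0.38 and -0.27 on day 6. The day 2 and day 4 arrays stood below all day 0 arrays, which lay between -0.17 and 0.079, while 2 of the day 6 arrays lay within that range. Set against the day 0 array of the same experiment, the day 6 medians were -0.21, 0.066, -0.41 and -0.37 in experiments 1 to 4. The experiment numbers were not borne out as pairs for these days. The day 0 array of experiment 2, at -0.17, was dim and the lowest of its day, so no conclusion on that experiment is drawn.

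Of the 852 of the 977 that passed the detection filter, 60 were called higher on day 2 (7.04%), 126 on day 4 (14.8%) and 203 on day 6 (23.8%), against 0.724%, 1.28% and 4.85% of all tested probes. Of the 886 of the 944 that passed, 21 were called lower on day 2 (2.37%), 23 on day 4 (2.6%) and 96 on day 6 (10.8%), against 0.31%, 0.328% and 4.2%. The IgG pulldown gave medians of 0.32, 0.54 and 0.45 for the first list and -0.36, -0.52 and -0.30 for the second on days 2, 4 and 6. The lists drawn from input on day 6, of 1151 higher and 1145 lower probes, had AUF1 medians of 0.17, 0.35 and 0.31 and of -0.36, -0.42 and -0.19 on these days. In every case the pulldown medians were smaller in size than those of input, whose values chose the lists. Median scaling moves all probes at once and turned the day 2 median of the 977 to -0.21, below 0 but above the shift of -0.74 over the tested probes.

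**Figure D5:**
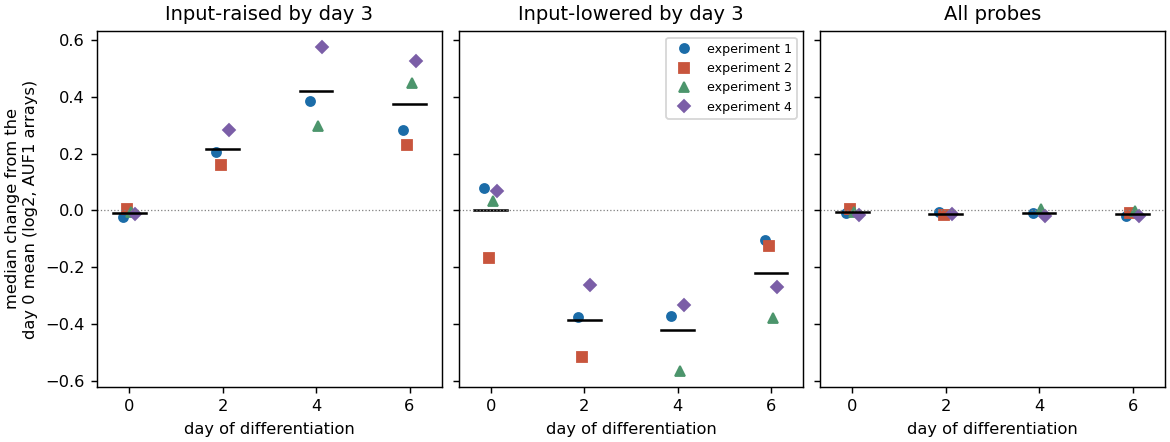
Median change (log2) from the day 0 mean on each AUF1 array, for the 977 probes higher in input by day 3, the 944 lower in input by day 3 and all 25697 probes, with points shaped by experiment number and bars at the mean of each day. The raised list lies between 0.16 and 0.57 on all later arrays, and the lowered list is lowest on days 2 and 4 and lies between -0.38 and -0.11 on day 6.

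Late changes in input were read in the same way. The 37 probes at least 2-fold higher in input on day 6 than on day 3 had median AUF1 changes of 0.0011 on day 2, 0.17 on day 4 and 0.17 on day 6, and their arrays on day 6 ranged from -0.0034 to 0.42. Only 1 probe was called at least 2-fold lower in input on day 6 than on day 3.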

How the data were processed

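One table of 44 Illumina bead arrays was used. The deposited intensity (average signal) and detection p-value of 25697 probes per array come from GenomeStudio 1.6.0, per the submitters' processing notes. The sources used here do not say whether a background had been removed, and the lowest signal was 32.4. No 2 columns held the same values (0 pairs). Each column name carries a group, an experiment and an array number, so columns were assigned to groups, with the experiment number as a possible block.

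Processing used limma 3.58.1 (R 4.3.3): normal-exponential background correction from detection p-values, an offset of 16, quantile normalization and log2, separately for AUF1 (14 arrays), both pulldowns (29), input (15), and AUF1 with input on days 0 and 6 (18). The offset understates changes of dim probes. A fit tested probes that 3 or more of its arrays detected (p under 0.05), with 1 mean per group (lmFit, eBayes), adjusted by Benjamini-Hochberg over all tested probes. Where no array of the dimmer day detected a probe, the fold is a bound against the lowest detected signal. The scripts were checked on simulated data. The number of arrays limits the precision.

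Probes named are, per comparison, up to 2 highest and 2 lowest among called probes whose groups do not overlap and that every array of the brighter day detected. For the test against input the 2 highest and 2 lowest were taken. The members, lists and tests were chosen with earlier results of these data known. None of the 25697 identifiers (0) occurs in the gene table used, so the gene lists and cell type markers planned are not analysed here, and neither are sequences. The experiment numbers were taken as pairs where every correlation of same-numbered deviations was over 0.1, in 3 or more pairs: day 2 with day 0 (0.14 to 0.56) and day 6 with day 4 (0.21 to 0.65). Elsewhere the lowest was 0.042 (day 4 with day 0), 0.019 (day 6 with day 0) or came from 2 pairs (day 4 with day 2). The limit was a choice, and another measure ranked the days otherwise. The same-numbered array was the best match in 2 of 4 for day 2 with day 0 and 3 of 3 for day 6 with day 4. It was in 2 of 4 for day 4 with day 0, 3 of 4 for day 6 with day 0 and 2 of 3 for day 4 with day 2. Alternatives were other scalings, filters, spreads, the block and left-out arrays.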

Additional observations from a re-analysis of the deposited data

Results flagged for a closer look

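The change from day 0 to day 6 in the AUF1 pulldown differed from the change in input for 2256 probes by limma's interaction contrast. The probes named for this test had differences of 4.04 (ILMN_2980661), 3.75 (ILMN_2980663), -5.60 (ILMN_2882658) and -5.00 (ILMN_2710698) on the log2 scale.

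ILMN_2882658 had an AUF1 array far from the rest on both of these days. On day 6 experiment 2 stood at 11.17 and the other 3 arrays at 12.01 to 12.17, and on day 0 experiment 1 stood at 9.83 and the others at 10.23 to 10.29. Of 42 groups of 4 AUF1 arrays examined over the named probes, 2 held such an array.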

How the results depend on the processing

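The scaling, the spread model and single arrays moved the counts of called probes. Under median scaling the tested probes as a whole shifted by -0.74 (day 2 against day 0), -0.47 (day 4), 0.18 (day 6), 0.22 (day 4 against day 2) and 0.66 (day 6 against day 4) on the log2 scale, and 4, 5, 120, 0 and 72 probes were called. The higher and lower calls split as 1 and 3, 4 and 1, 98 and 22, 0 and 0, and 72 and 0. Relative to that shift all 120, 187, 1050, 2 and 353 called probes kept their direction. Scaling to 1 mean and SD gave 656 on day 6 against day 0 (431 higher, 225 lower) and 0 on day 4 against day 2. Normalized with the IgG arrays, day 6 against day 4 gave 230 calls. Without a detection filter day 4 against day 2 gave 0, and probes detected on all arrays gave 119 on day 4 against day 0, 1 on day 4 against day 2 and 572 on day 6 against day 4. Fits of the 2 days alone gave 67 on day 2 and 120 on day 4 against day 0, 0 on day 4 against day 2 and 62 on day 6 against day 4. Array weights gave 1810, 713 and 2817 on days 2, 4 and 6 against day 0, 6 and 1198 for the steps and 3823 over all days. A fit with detected share as covariate gave 283 on day 4 and 1775 on day 6 against day 0, 783 on day 6 against day 4 and 1502 over all days. Without the arrays under 30% detected, days 0, 2, 4 and 6 keep 3, 1, 2 and 4 arrays, so these counts rest on fewer arrays: 15 on day 2 against day 0, 0 on day 4 against day 2 and 86 on day 6 against day 4. The cause of these moves was not tested.

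Under the replicate block of experiment numbers 315, 289 and 1693 probes were called on days 2, 4 and 6 against day 0, 2 and 864 for the steps to day 4 and day 6, and 2027 over all days. The numbers are not borne out as pairs for days 4 and 6 against day 0 or for day 4 against day 2, and the block changed no call of a detected share or of the AUF1 and IgG difference.

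Leaving out 1 array gave 49 to 264 calls for day 2, 108 to 245 for day 4 and 662 to 1200 for day 6 against day 0, 460 to 1153 over all days, 0 to 8 on day 4 against day 2 and 35 to 566 on day 6 against day 4. Day 2 against day 0 gave 65, 264, 58 and 71 without day 0 experiments 1, 2, 3 and 4, and 49 and 55 without day 2 experiments 1 and 2. Day 4 against day 0 gave 108, 113 and 120 without day 0 experiments 1, 3 and 4, and 108 and 109 without day 4 experiments 3 and 4. Day 6 against day 0 gave 662 and 695 without day 0 experiments 1 and 3. The test over all days gave 525 and 552 without these, and 487, 460 and 529 without day 6 experiments 1, 2 and 4. Day 4 against day 2 gave 0 without day 2 experiment 1 or 2 or day 4 experiment 3 or 4, 8 without day 2 experiment 4 and 4 without day 4 experiment 1. Day 6 against day 4 gave 35 and 101 without day 4 experiments 3 and 4, and 153, 135, 566 and 218 without day 6 experiments 1, 2, 3 and 4. The difference between AUF1 and IgG changes gave 0 to 1 calls on day 2 (1 without the AUF1 array of experiment 4), 0 to 0 on day 4 and 0 to 0 on day 6, and 4 on day 6 with array weights. The difference from input gave 1810 to 2758, 1391 under median scaling (948 above, 443 below) and 3989 with array weights. The detected share differed by -9.94 to -4.40 points for day 2, -8.14 to -0.46 for day 4 and 0.42 to 5.31 for day 6 against day 0, by 3.58 to 11.3 on day 6 against day 4 and by -1.09 to 6.59 on day 4 against day 2, turning to -1.09 without day 4 experiment 4.

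For the lists drawn from input, median scaling gave AUF1 medians of -0.21, 0.027 and 0.64 on days 2, 4 and 6 for the probes higher by day 3, -1.26, -1.004 and -0.036 for those lower by day 3, -0.19, 0.026 and 0.58 for those higher by day 6 and -1.20, -0.97 and -0.0099 for those lower by day 6. Members detected on all arrays gave 0.56, 0.70 and 0.61 (higher by day 3), -0.40 on day 6 (lower by day 3), 0.53, 0.69 and 0.58 (higher by day 6) and -0.34 on day 6 (lower by day 6). The probes higher in input between days 3 and 6 gave -0.44, -0.046 and -1.25 when detected on all arrays, a handful of probes, and 0.053 on day 2 without the dim arrays. Dim arrays limit what can be seen: 10889 probes were detected on none of the AUF1 arrays.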
